A study of Mus musculus with 2 samples.

Results

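The genes described here were 10 known genes of the endoplasmic reticulum (ER) stress response, Hspa5, Hsp90b1, Pdia4, Dnajb9, Xbp1, Atf3, Atf4, Ddit3, Trib3 and Herpud1. They were chosen by name and found in the mRNA table by matching its RefSeq transcript identifiers to mouse gene symbols, and all 10 had an entry among 20317 genes. Of these, 9 had a value in both libraries and were among the 12012 genes that could be compared, whereas Trib3 was listed at 0 in both. RNA-seq was performed on primary hepatocytes from male wild-type C57BL/6J mice, with 1 library from mice injected intraperitoneally with oil and 1 from mice injected with CCl4, a hepatotoxin that is used to induce liver fibrosis. The CCl4 was a 20% solution in mineral oil, given at 2.5 ml per kg over 8 weeks according to the labels, although the study's methods give a shorter course. The hepatocytes were isolated by enzymatic perfusion of the liver and a density gradient, and how many mice went into each library is not stated in the sources used here. With 1 library per condition no difference has a replicate check, so folds are given with no test, and their intervals cover the counting of reads only.

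Proteins that enter the secretory pathway are folded in the ER by resident chaperones. When unfolded proteins accumulate, the sensors IRE1, PERK and ATF6 start the unfolded protein response: IRE1 splices the Xbp1 mRNA into the form that encodes an active transcription factor, ATF6 is cleaved to release one, and PERK phosphorylates eIF2alpha, which slows translation in general and favours that of Atf4. ATF6 and XBP1 drive chaperones and degradation factors, while ATF4 drives Atf3, Ddit3 and Trib3. Hepatocytes, which secrete most plasma proteins, keep a large ER and express its chaperones at high levels.

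Promoters of this response carry short elements that its factors bind, and the promoter windows of the members were searched for 5 of them. The elements are known from promoters of such genes, so matches in the members were likely beforehand and are no independent result. The elements were the ER stress response element ERSE (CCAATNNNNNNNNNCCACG), ERSE-II (ATTGGNCCACG), the unfolded protein response element UPRE (TGACGTGG), the C/EBP-ATF composite element bound by ATF4 (TTGCATCA) and the cAMP response element CRE (TGACGTCA). ERSE, ERSE-II and the reverse strand of UPRE share the letters CCACG. All 10 members had a RefSeq promoter window (build GRCm38.p6, 250 bases before to 50 after the annotated start), and both strands were searched for exact matches. The stretches that hold a match in the 4 members with one follow, 5′ to 3′ on the strand of the gene, with the fixed letters of each element in capitals. They lie at chr2:34771995-34772073 (plus strand) for Hspa5, chr10:86705503-86705686 (minus strand) for Hsp90b1, chr8:94386287-94386417 (plus strand) for Herpud1 and chr1:191183406-191183473 (minus strand) for Atf3, all upstream of the start.
Hspa5: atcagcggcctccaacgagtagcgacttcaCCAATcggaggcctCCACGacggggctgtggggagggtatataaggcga
Hsp90b1: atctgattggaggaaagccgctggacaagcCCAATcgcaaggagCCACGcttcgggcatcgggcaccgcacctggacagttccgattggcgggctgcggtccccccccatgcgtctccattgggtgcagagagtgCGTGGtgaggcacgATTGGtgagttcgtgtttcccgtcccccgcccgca
Herpud1: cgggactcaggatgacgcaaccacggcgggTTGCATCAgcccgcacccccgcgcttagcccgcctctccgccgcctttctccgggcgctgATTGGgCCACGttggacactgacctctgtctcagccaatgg
Atf3: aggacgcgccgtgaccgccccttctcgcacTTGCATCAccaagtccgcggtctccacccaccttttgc

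Hspa5 held 1 exact ERSE match, from -65 to -47 relative to the start. Hsp90b1 held 2, from -212 to -194 on the strand of the gene and from -107 to -89 on the opposite strand. Copies that depart from the exact letters were not searched for, so these are not full counts of such elements. Herpud1 held an ERSE-II from -52 to -42 and a C/EBP-ATF composite element from -112 to -105, and Atf3 held the composite element from -110 to -103. Among all 32851 windows of the same length, 0.119% held an ERSE, 0.0365% an ERSE-II, 0.676% a UPRE, 0.895% the composite element and 1.79% a CRE. None of the 5 exact sequences was found in the windows of Pdia4, Dnajb9, Xbp1, Atf4, Ddit3 and Trib3, which says only that these letters are not in these windows.

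**Figure D1:**
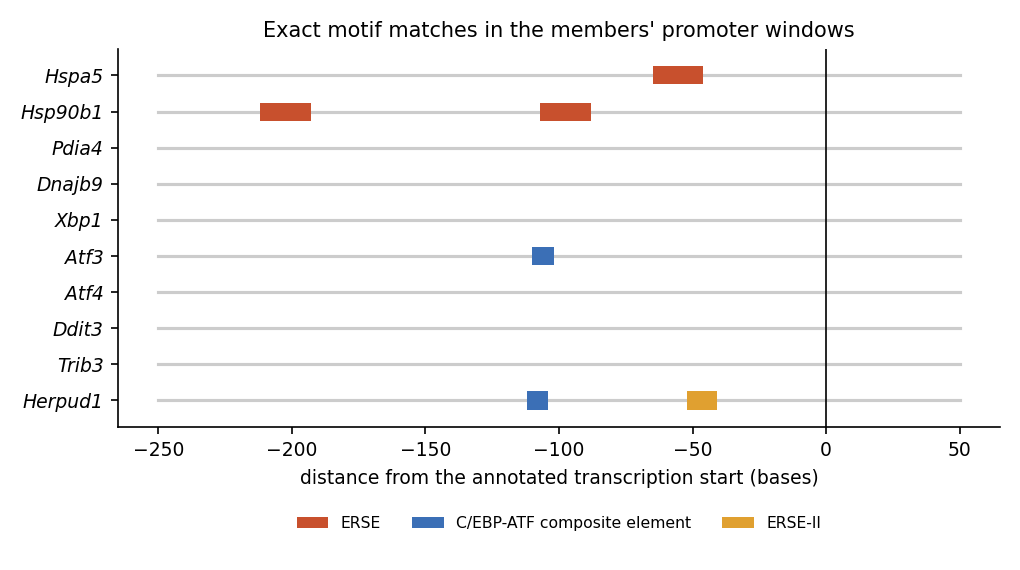
Positions of exact element matches in the promoter windows of the 10 members, in bases from the annotated transcription start (vertical line). Bars mark ERSE, ERSE-II and the C/EBP-ATF composite element; the 4 genes with a match have them between -212 and -42.

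The values are RPKM, read counts divided by transcript length and by the size of the library, which correct for length and library size and can be compared between genes. Values under 1 RPKM are listed as 0. The totals behind the RPKM values were 57992553 reads for oil and 64655666 for CCl4. A gene was called higher or lower at an absolute log2 fold change (CCl4 over oil, with 0.1 RPKM added to both) of at least 1. By this rule 15.5% of the 12012 genes were called higher and 5.25% lower, and the median log2 fold change of all genes was 0.32. A gene with a log2 fold change of 0 therefore stood below the median gene.

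All 4 chaperones had lower levels in the CCl4 library than in the oil library, and none passed the fold rule. Hspa5 encodes BiP, the main ER Hsp70 chaperone, which also holds the sensors inactive. It was the most abundant member in both libraries, at 336.7 RPKM in oil and 185.7 RPKM in CCl4, that is 55.2% of the oil level. Its log2 fold change was -0.86 (95% counting interval -0.91 to -0.81, from at least 9041 and 5560 reads), and 6.9% of all genes had a lower one. Its 2 RefSeq transcripts gave nearly the same values, with NM_022310 at 327.8 RPKM in oil and 180.7 RPKM in CCl4.

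Hsp90b1 encodes GRP94, the ER Hsp90 chaperone, and differed least among the chaperones. It stood at 170.1 RPKM in oil and 130.8 RPKM in CCl4, a log2 fold change of -0.38 (counting interval -0.45 to -0.31). Pdia4, a protein disulfide isomerase also known as ERp72, was listed at 78.2 RPKM in oil and 53.3 RPKM in CCl4, a log2 fold change of -0.55 (counting interval -0.66 to -0.44). Dnajb9 encodes ERdj4, a cochaperone of BiP and a classical target of spliced XBP1. It was the least abundant chaperone, at 9.01 RPKM in oil and 6.10 RPKM in CCl4, with a log2 fold change of -0.56 (counting interval -0.70 to -0.42). The levels of the 4 chaperones in CCl4 ranged from 55.2% to 76.9% of those in oil, and their median log2 fold change was -0.55 beside 0.32 over all genes.

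**Figure D2:**
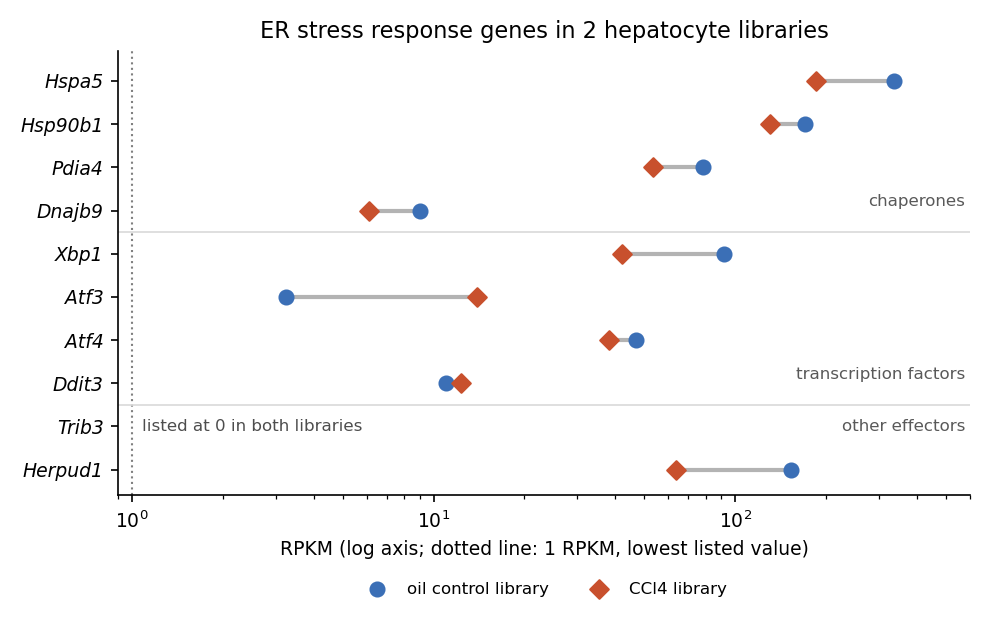
RPKM (log axis) of each member in the oil library (circles) and the CCl4 library (diamonds), 1 library each, so there are no error bars. The 4 chaperones, Xbp1, Atf4 and Herpud1 lie lower in CCl4, Atf3 lies higher, from 3.25 to 13.9 RPKM, and Trib3 is listed at 0 in both.

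The 4 transcription factors did not share a direction, and their median log2 fold change was -0.07. Xbp1, the target of IRE1 splicing, (chr11:5520641-5525993) was called lower, at 91.9 RPKM in oil and 42.1 RPKM in CCl4, a log2 fold change of -1.12 (counting interval -1.21 to -1.05). Its 2 RefSeq transcripts, NM_001271730 and NM_013842, differed little in either library, with NM_013842 at 91.3 RPKM in oil and 41.7 RPKM in CCl4. These RPKM values therefore give the total of Xbp1 mRNA and no measure of its splicing.

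Atf3 (chr1:191170296-191183333), a stress-inducible bZIP factor, was the only member called higher. It was listed at 3.25 RPKM in oil and 13.9 RPKM in CCl4, a log2 fold change of 2.07 (counting interval 1.94 to 2.26, from at least 372 and 1777 reads), and 98.0% of all genes had a lower one. Atf4, the factor whose translation follows eIF2alpha phosphorylation, was listed at 46.7 RPKM in oil and 38.1 RPKM in CCl4, a log2 fold change of -0.30 (counting interval -0.43 to -0.16). Ddit3 encodes CHOP, a factor linked to cell death under lasting ER stress. It stood at 11.0 RPKM in oil and 12.4 RPKM in CCl4, a log2 fold change of 0.16 whose counting interval (0.0017 to 0.33) began close to 0. In oil Atf3 was the lowest of the 4 factors, and in CCl4 it stood just above Ddit3.

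Among the other effectors, Herpud1 (chr8:94386429-94395371) had the lowest log2 fold change of all members compared. It encodes a ubiquitin-like membrane protein of ER-associated degradation, the pathway that sends misfolded proteins to the proteasome. It was listed at 153.5 RPKM in oil and 63.5 RPKM in CCl4, a log2 fold change of -1.27 (counting interval -1.35 to -1.20), and 3.1% of all genes had a lower one. Trib3, a pseudokinase induced by ATF4 and CHOP, was under 1 RPKM in both libraries, so it has no fold.

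Thus 1 of 9 members compared was called higher (11.1%, beside 15.5% of all genes) and 2 were called lower (22.2%, beside 5.25%). These shares rest on 9 genes, and the members called lower, Xbp1 and Herpud1, come from different roles. The shares over all genes include 1323 genes listed at 0 in 1 library, whose folds are lower bounds, whereas the 9 members have both values. Of the 10689 genes with both values, 1527 were called higher and 586 lower.

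Chaperones and transcription factors were next compared within each library, where a ratio does not depend on how the libraries were scaled. The summed RPKM of the chaperones was 594.0 in oil and 376.0 in CCl4, and that of the factors 152.9 and 106.4. The chaperones thus stood 3.89-fold above the factors in oil and 3.53-fold in CCl4. This small difference depended on single genes. With the transcripts of each gene summed, the ratio was 3.78 in oil and 3.76 in CCl4. Only Hspa5 and Xbp1 have several transcripts here, of nearly equal value, so this sum mainly gives these genes more weight. It is therefore no independent check of the difference. Without Xbp1 the ratio was 9.74 in oil and 5.84 in CCl4, and without Hspa5 it was 1.68 in oil and 1.79 in CCl4, the opposite direction. For single pairs, Hspa5 stood 30.5-fold above Ddit3 in oil and 15.0-fold in CCl4, and 103.7-fold above Atf3 in oil and 13.4-fold in CCl4. Against Xbp1, however, Hspa5 stood 3.67-fold higher in oil and 4.41-fold higher in CCl4.

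The mRNAs that mark cell types differed strongly between the libraries. All 10 hepatocyte markers, among them Alb and Hnf4a, were lower in CCl4, with log2 fold changes from -2.33 to -0.42, 5 of them called, and a summed level of 18040 RPKM in oil and 10665 RPKM in CCl4. Alb, at 8656 RPKM in oil and 6476 RPKM in CCl4, was abundant in both, as the labelled cell type requires. All 13 stellate cell and myofibroblast markers were called higher, and their summed level was 90.1 RPKM in oil and 943.3 RPKM in CCl4. Of the 9 Kupffer cell and macrophage markers 7 were called higher (summed 1526 RPKM in oil and 4135 RPKM in CCl4). Among these, Lyz2 had the largest difference in level, at 321.0 RPKM in oil and 1645 RPKM in CCl4. The Kupffer cell marker Clec4f was slightly lower in CCl4, at 282.6 and 254.5 RPKM, and was the only one of the 9 below 0. Of the 8 sinusoidal endothelial markers 1 was called higher (528.4 and 890.5 RPKM). Cholangiocyte markers were called higher in 2 of 4 compared, with Sox9 and Cftr at 0 in both libraries (50.9 and 170.2 RPKM). B lymphocyte and plasma cell markers were called higher in 3 of 7 compared, with Tnfrsf17 at 0 in both (8.94 and 28.7 RPKM). In bulk RNA, fewer cells of a type and less RNA per cell cannot be told apart, and the part of these cells in the values of the members was not tested.

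The direction of most members depended on the reference. The median hepatocyte marker had a log2 fold change of -1.09. With both libraries scaled to it, a choice made after the data were seen, the log2 fold change of Hspa5 was 0.24, that of Hsp90b1 0.72, that of Pdia4 0.54 and that of Dnajb9 0.53. Atf4 then stood at 0.80 and Ddit3 at 1.25, past the fold rule. Xbp1 (-0.03) and Herpud1 (-0.18) stayed just under 0 and were no longer called, and Atf3 stood at 3.16. Conversely, with the libraries scaled to the median gene, whose log2 ratio was 0.30, Hspa5 passed the rule for a lower call at -1.16 and Ddit3 turned to -0.14. Atf3 was above 0, and Xbp1 and Herpud1 were below it, in all 3 scalings, although Xbp1 with the hepatocyte marker scaling differed from 0 by less than the width of its counting interval. For several members the sign also depended on the marker taken, as the 10 markers ranged from -2.33 to -0.42. Hspa5 lay above 7 of the 10 in log2 fold change, Pdia4 and Dnajb9 above 9, Xbp1 above 5 and Herpud1 above 4. Atf3, Hsp90b1, Atf4 and Ddit3 lay above all 10. Against Alb, the marker with the highest log2 fold change, Hspa5 was lower in CCl4: Alb stood 25.7-fold above it in oil and 34.9-fold in CCl4.

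**Figure D3:**
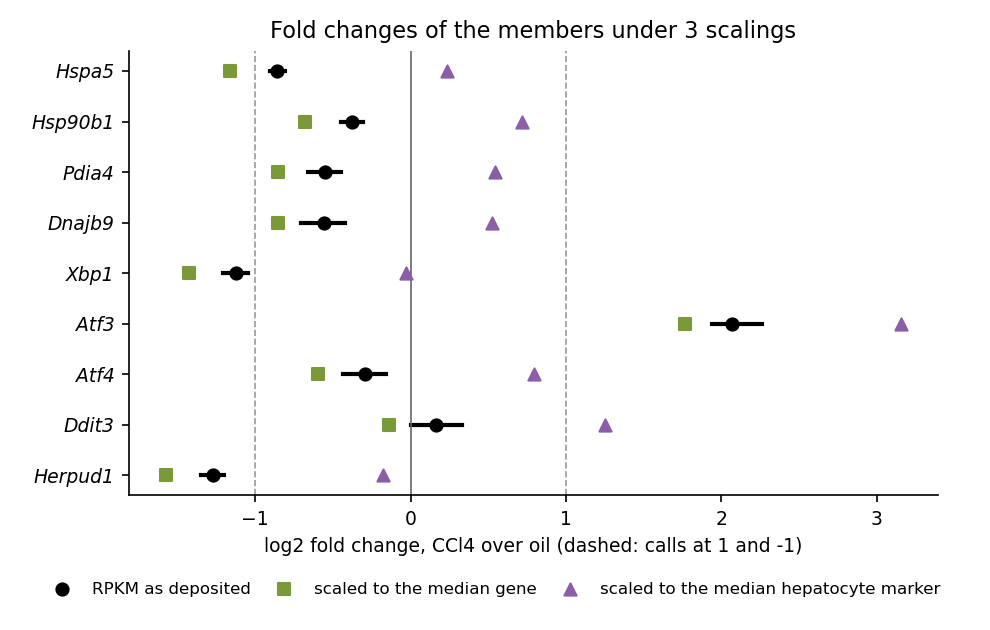
log2 fold change (CCl4 over oil) of the 9 members compared, with RPKM as deposited (circles, bars show the 95% counting interval), scaled to the median gene (squares) and scaled to the median hepatocyte marker (triangles). The 4 chaperones and Atf4 lie below 0 under the first 2 scalings and above 0 under the third, while Atf3 lies above 1 under all 3.

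The wider pathway was described with 8 lists of 126 genes in all. ER folding enzymes and cochaperones had 1 of 24 genes called higher and 2 called lower, with a median log2 fold change of -0.22. The genes called lower were Creld2, an ER protein induced by ER stress, with 31.6 RPKM in oil and 14.1 RPKM in CCl4, and Hyou1, the nucleotide exchange factor of BiP also known as GRP170, with 46.4 and 22.9 RPKM. Erp29, an ER luminal protein with a thioredoxin fold, was called higher, with 44.0 RPKM in oil and 88.1 RPKM in CCl4 and a log2 fold change barely past the threshold. Pdia5, a protein disulfide isomerase, did not reach the rule for a lower call, at -0.99.

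Among the stress sensors and eIF2alpha kinases none of 11 was called, and the median log2 fold change was 0.20. Ern1, which encodes IRE1, was listed at 11.5 RPKM in oil and 7.94 RPKM in CCl4 (log2 fold change -0.53). Eif2ak3, which encodes PERK, and Atf6 had log2 fold changes of 0.53 and 0.20, and are named here after their values were seen. Creb3l3, a liver-enriched membrane-bound factor, had 46.3 RPKM in oil and 24.6 RPKM in CCl4 (-0.91). Atf6b, a relative of Atf6, and Mbtps1, the site-1 protease that cleaves ATF6, had log2 fold changes of 0.54 and 0.53. Mbtps2, the site-2 protease, was listed at 0 in oil and at 1.53 RPKM in CCl4, so its fold is a lower bound and could pass the rule. In the list of ER-associated degradation none of 17 genes was called, with a median of -0.16. Syvn1, the ubiquitin ligase HRD1, had the largest log2 fold change of that list among genes of at least 5 RPKM in 1 library, at -0.71, followed by Ubxn4 and Edem1 (both -0.51).

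Genes listed for the integrated stress response also differed in both directions, with 1 of 19 compared called higher and 3 called lower (median -0.25). Chac1, a glutathione-degrading enzyme, was called lower at 5.30 RPKM in oil and 1.31 RPKM in CCl4, a log2 fold change of -1.94. Gdf15, a secreted stress cytokine, was called lower at 32.2 RPKM in oil and 15.5 RPKM in CCl4, and so was Asns, asparagine synthetase, at 4.32 and 1.77 RPKM, which is named here after its values were seen. Sesn2, which restrains mTORC1, was called higher at 2.62 RPKM in oil and 5.59 RPKM in CCl4. Cth, cystathionine gamma-lyase, was listed at 79.2 RPKM in oil and 48.1 RPKM in CCl4 (log2 fold change -0.72). Fgf21, Vldlr, Slc7a11 and Stc2 were listed at 0 in both libraries, as Trib3 was.

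The translocon and N-glycosylation list, which handles the entry of proteins into the ER, had none of 20 genes called, with log2 fold changes from -0.47 for Sec61g, a translocon subunit, to 0.36 for Rpn2, a subunit of the oligosaccharyltransferase, and a median of 0.03. Spcs1, of the signal peptidase complex, and Ddost, of the oligosaccharyltransferase, stood at 0.35 and 0.34. The ER lists can be set beside chaperones of other compartments. Of 8 mitochondrial chaperones and proteases all were below 0, from -1.20 to -0.57, with a median of -0.89, and 1 was called. This was Hspd1, the mitochondrial Hsp60, at 96.3 RPKM in oil and 41.9 RPKM in CCl4. Clpx (-0.99), Hspe1 (-0.97) and Hspa9 (-0.92) lay close to the threshold.

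Cytosolic heat shock proteins had 1 of 10 called higher and 2 called lower (median -0.51). Dnajb1, an Hsp40 cochaperone, was called lower at 34.8 RPKM in oil and 13.8 RPKM in CCl4, and Hsph1, a nucleotide exchange factor of Hsp70, at 8.10 and 3.70 RPKM, while Hsp90aa1, a cytosolic Hsp90, was listed at 91.3 RPKM in oil and 45.8 RPKM in CCl4, just short of the rule. Hspa1a was called higher, at 8.31 RPKM in oil and 24.0 RPKM in CCl4, but its near-identical copy Hspa1b was listed at 28.9 and 30.7 RPKM, so the split of reads between them is uncertain. Immediate early genes, which respond quickly to cell handling as well as to signals and among which Atf3 is often counted, had none of 13 called (median 0.15). Klf6 and Ier3 had log2 fold changes of 0.93 and 0.89, Egr1 and Ier2 of -0.73 and -0.70, and Fosb was listed at 0 in oil and 1.95 RPKM in CCl4, so its fold is known only as a lower bound. Whether handling of the cells had a part in the Atf3 value was not tested.

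**Figure D4:**
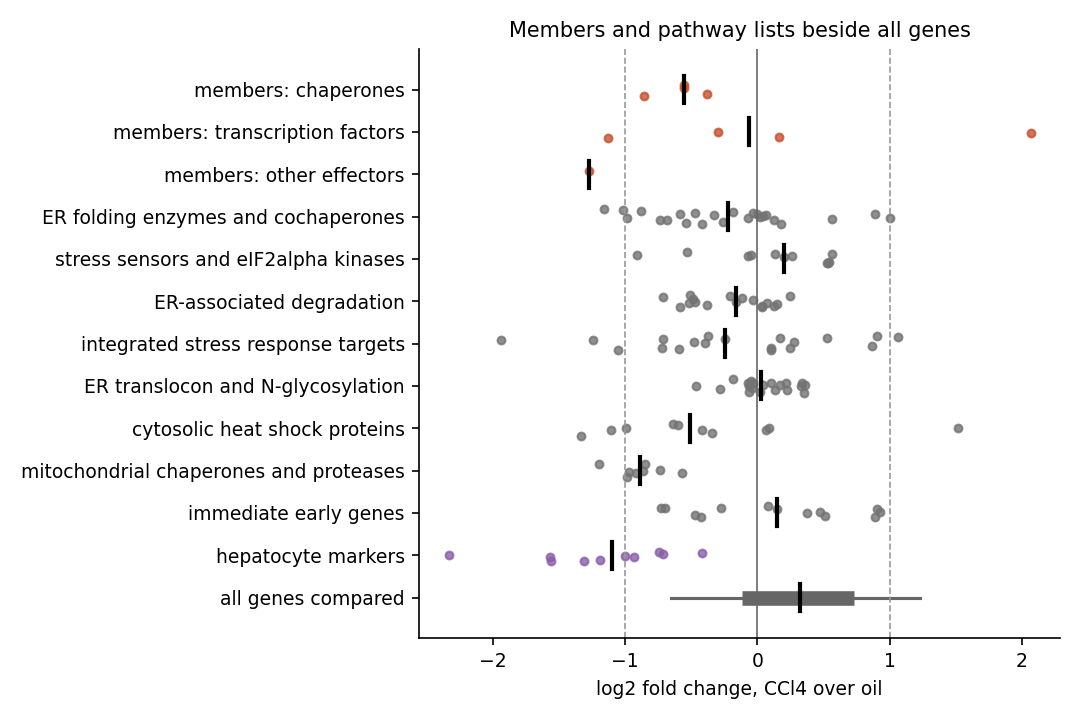
log2 fold change (CCl4 over oil) of each gene compared, by member class, pathway list and hepatocyte markers (points, with a bar at the median; dashed lines at the call threshold). The lowest row gives all 12012 genes compared (thick line, middle 50%; thin line, 10th to 90th percentile; bar, median 0.32), and the medians of all 8 pathway lists lie to its left.

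Genes with the same elements in their promoter windows were described last, without a test. Of 37 gene symbols with an ERSE in the window, 19 could be compared, and 14 of these had a log2 fold change below 0, with a median of -0.33, while 69.8% of all genes compared were above 0, with a median of 0.32. Besides Hspa5 and Hsp90b1 they included Creld2 (-1.16), Ero1b, an ER oxidoreductase (-0.88), Syvn1 (-0.71), Dnajc3, a cochaperone of BiP (-0.68), Pdia6, a disulfide isomerase (-0.33), Calr, calreticulin (-0.26), and Canx, calnexin (-0.07). Creld2 was called lower, and Adcy3 and Zfp57, listed at 0 in oil (taken as 1 RPKM) and at 5.94 and 2.35 RPKM in CCl4, were called higher. Several of these genes also stand in the folding list, so the groups are not independent. Of the 8 genes compared with an ERSE-II, 3 were below 0, Herpud1 (-1.27), Dnajb11, an ER Hsp40 cochaperone (-0.58), and Rcl1 (-1.99), and the median was 0.19. For the other elements, 59 of 101 genes compared with a UPRE were above 0 (median 0.17), as were 45 of 72 with the composite element of Atf3 and Herpud1 (median 0.32) and 210 of 323 with a CRE (median 0.22).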

How the data were processed

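RNA-seq libraries of primary mouse hepatocytes, 1 per condition, were analysed from the deposited tables. The submitters' processing notes name TopHat2, CASAVA 1.4 and the build mm10. The counting program, annotation version and test are not given in the sources used here. The authors deposited RPKM values per transcript, in which values under 1 RPKM were set to 0: of the new lncRNAs under 1 RPKM in their count table, all 1354 in oil and all 1347 in CCl4 were listed at 0. The deposited log2 fold change, p-value and q-value columns hold the authors' own comparison and were not used. The deposited counts and transcript lengths of new lncRNAs served only as a check.

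Transcripts were named with the RefSeq table of GRCm38.p6 (27049 of 27457 matched), and a gene was its transcript with the highest mean RPKM. The fold was log2 of the CCl4 over the oil value, each with 0.1 RPKM added. A value listed at 0 in 1 library was taken as 1 RPKM, and genes at 0 in both were left out.

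The mRNA table holds no counts. Library totals were those that gave whole reads for short genes (under 400 bases, within 0.05 reads, 175 of 179 genes in oil and 185 of 190 in CCl4). Reads per gene are lower bounds, taken at the shortest transcript length, searched from 200 to 20000 bases, at which the values of both libraries were whole. For 1397 new lncRNAs with known counts this gave the deposited count in 82.5% and a higher one in 0. Most new lncRNAs are scarce, with 1354 under 1 RPKM and 89 at or above it in oil. The tolerance for a whole read number widened with that number, so abundant genes can match at too short a length. The 82.5% therefore does not carry over to the members, whose true read numbers can be much higher. Intervals (95%, exact Clopper-Pearson on the share of reads) cover counting error only. Because they rest on lower bounds of the reads, they can be wider than the full read numbers would give.

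The named genes were the 10 members, the marker genes, and in each list the 4 with the largest absolute log2 fold change among genes of at least 5 RPKM in 1 library, with any at 0; 1 gene that the rule names is not reported here. The members and lists were chosen with earlier results of these data known. Protein sequence features were not analysed here. The fold calculation was tested on simulated data. Alternatives were the pseudocount, the treatment of listed zeros, scaling, filters, the call threshold and sums over transcripts. Python 3.11.15, numpy 2.4.6, pandas 2.3.3, scipy 1.17.1 and matplotlib 3.10.9 were used.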

Additional observations from a re-analysis of the deposited data

How the results depend on the processing

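No replicate could be left out with 1 library per condition, and no paired analysis was possible because each condition has 1 library. Scaled to the median hepatocyte marker, chosen after seeing the data, 2 members were called higher and 0 lower, 8816 genes were called higher and 79 lower, and the medians were 0.53 for the chaperones and 1.02 for the transcription factors. All 8 pathway list medians were then above 0. Scaled to the median gene, 1068 genes were called higher and 1101 lower, the medians were -0.85 for the chaperones and -0.37 for the factors, and 0 of 8 list medians were above 0. With the call set at an absolute log2 of 2, 0 members were called lower, and 261 genes were called higher and 94 lower. At a fold of at least 1.5, 3961 genes were called higher and 1364 lower. A pseudocount of 1 RPKM gave 1224 genes called higher. Keeping only genes with a mean of at least 5 RPKM gave 962, out of a smaller set than the 12012 genes. The chaperone to factor ratio was 1.68 in oil and 1.79 in CCl4 without Hspa5, and 9.74 and 5.84 without Xbp1. With transcripts summed it was 3.78 and 3.76, but that sum mainly gives more weight to Hspa5 and Xbp1, which have several near-equal transcripts. Of the counts of calls, class medians and class ratios under the alternatives, 46 stayed within 1.5 times the count or within the counting interval, and 22 did not. This rule is wide: with listed zeros kept as 0, 2689 genes were called higher instead of 1859, and that counted as staying. Of the pathway list medians and single member folds, 116 stayed within the counting interval and 37 did not. Across the alternatives other than the hepatocyte marker scaling, the log2 fold change of Atf3 ranged from 1.77 to 2.10, that of Herpud1 from -1.57 to -1.26, that of Xbp1 from -1.43 to -1.11, that of Hspa5 from -1.16 to -0.85 and that of Ddit3 from -0.14 to 0.16. At the lower bound of its reads, the fold of Ddit3 is hardly separable from 0 by counting alone, and Trib3, under 1 RPKM, has no fold.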
